A study of Mus musculus with 2 samples.

Results

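The 10 genes followed here belong to the Trem2 axis and to disease-associated microglia, and they were traced through every cell class of mouse cortex: Trem2, Tyrobp, Cd9, Cd68, Spp1, Gpnmb, Cst7, Itgax, Axl and Lgals3. They were taken from the tables by symbol, and all 10 were found among the 32285 genes of the tables. Single-cell RNA sequencing had been done on dissociated cortex of 4-month-old male mice, with 1 Fam69c knockout (KO) library and 1 Fam69c wild-type (WT) library. The labels name 7 male mice whose cortices were pooled by genotype, do not say how many went into each pool, and do not describe the knockout allele or the strain. Cells were dissociated with heating on a gentleMACS instrument, stained with the viability dye 7-AAD and sorted before droplet capture with 10x Genomics 3′ chemistry.

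Trem2 is a lipid-sensing surface receptor of microglia that has no signalling motif of its own and signals through the adaptor Tyrobp (DAP12), which recruits the kinase Syk. Around plaques, in demyelinated tissue and in ageing, microglia of mice pass to a disease-associated state in which homeostatic genes go down and genes for lipid handling, lysosomes and phagocytosis go up. The later step of that passage depends on Trem2 in mice. Cst7, Itgax, Axl, Spp1, Gpnmb and Lgals3 are among the genes induced in that state, whereas Trem2, Tyrobp, Cd9 and Cd68 are already transcribed in resting microglia. Most of these genes also serve other cells: Tyrobp works beside many receptors of myeloid and NK cells, and Cd9 is a tetraspanin of myelinating glia.

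There was 1 library per genotype, so no test was made and genotype cannot be told apart from pool, sort or library. Intervals given here are 95% intervals that cover counting error only. The tables held 9182 KO and 7150 WT barcodes with 75473717 UMIs in KO and 57166105 in WT (unique molecular identifiers, 1 per captured transcript), and 17 barcode sequences occurred in both libraries. After filtering, 7032 KO and 4940 WT cells were kept, and a gate on fixed marker genes left 444 KO cells (6.31%) and 819 WT cells (16.6%) without a class. The targeted gene, listed as Dipk1c, was still read in the library labelled KO, at 20.6 CPM (19.5 to 21.7) against 32.3 CPM (30.7 to 34.0) in the library labelled WT. Reads from the 3′ end check the label only where the deletion removes that end, which the labels do not say, so every direction below rests on the labels.

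The microglia-like class held 310 KO and 251 WT cells with median depths of 4995.5 UMIs in KO and 6553 in WT. All 10 of its gate markers were detected in at least 20% of its cells, and Siglech, Gpr34, Cx3cr1, Tmem119 and P2ry12 led it. These leading genes are themselves gate markers, so their lead follows from the gate. Fcrls, C1qc, C1qa and Ltc4s, which were not used in the gate, were also among its 10 leading genes. None of the genes followed here was used in the gate. Levels are CPM, the usual scaling of counts to a common total, here all UMIs of a class in a library. Each transcript contributes 1 tag near its 3′ end, so no division by length was made.

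The 250 bases before the transcription start are printed for Trem2, Cd68 and Spp1, which had their highest CPM in microglia-like or, for Spp1, fibroblast-like cells. Sequences are from RefSeq (GRCm38.p6), which gave a start for 9 of the 10 genes. Capitals mark GAGGAAG, a core recognised by the myeloid factor PU.1, and TGACTCA, the AP-1 site of Fos and Jun proteins, searched on both strands. The first line is chr17:48346151-48346400 (plus strand), the second chr11:69666171-69666420 (minus strand) and the last chr5:104434861-104435110 (plus strand).

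Trem2: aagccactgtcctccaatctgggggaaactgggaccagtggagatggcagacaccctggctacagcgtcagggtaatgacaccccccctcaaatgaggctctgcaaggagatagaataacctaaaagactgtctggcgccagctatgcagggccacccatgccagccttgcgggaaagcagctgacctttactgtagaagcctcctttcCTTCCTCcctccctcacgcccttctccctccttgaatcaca

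Cd68: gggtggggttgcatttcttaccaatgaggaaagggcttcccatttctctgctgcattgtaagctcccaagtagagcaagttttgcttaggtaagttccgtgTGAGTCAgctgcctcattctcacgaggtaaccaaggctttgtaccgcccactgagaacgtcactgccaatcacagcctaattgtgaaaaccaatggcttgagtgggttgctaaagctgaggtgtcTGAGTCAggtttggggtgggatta

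Spp1: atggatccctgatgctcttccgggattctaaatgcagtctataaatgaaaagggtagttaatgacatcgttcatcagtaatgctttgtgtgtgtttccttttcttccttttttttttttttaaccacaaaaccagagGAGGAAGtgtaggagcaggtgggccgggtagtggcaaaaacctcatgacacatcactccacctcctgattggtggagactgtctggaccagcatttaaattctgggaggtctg

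The Trem2 window held GAGGAAG on the opposite strand, beginning 41 bases before the start. The Cd68 window held TGACTCA on the opposite strand at 24 and at 149 bases before its start. In Spp1, GAGGAAG lay 113 bases before the first of its annotated starts and was absent before the other one. GAGGAAG was also found in the Axl window and TGACTCA in the Itgax window, and neither in those of Cd9, Cst7, Gpnmb and Lgals3. Of 32851 promoter windows of this length, 10.6% held GAGGAAG and 4.46% held TGACTCA. These matches describe letters and no binding.

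Trem2 and Tyrobp were the receptor and the adaptor. Trem2 (ENSMUSG00000023992, chr17:48346401-48354147, GRCm38/mm10) had 1946 CPM (1873 to 2021) in KO and 1751 CPM (1684 to 1820) in WT microglia-like cells, from 2676 UMIs in KO and 2587 in WT. The KO over WT difference was 0.15 on the log2 scale (0.07 to 0.23). Tyrobp (ENSMUSG00000030579, chr7:30413760-30417585) had 2356 CPM (2276 to 2439) in KO and 1788 CPM (1720 to 1857) in WT microglia-like cells. Its log2 difference of 0.40 (0.32 to 0.47) did not overlap that of Trem2. Both genes were thus higher in the KO library beyond counting error, and Tyrobp more than Trem2. With the median difference of their quartile of transcript length taken off, the Trem2 difference was -0.03 and that of Tyrobp 0.21.

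The balance of adaptor to receptor can be read within a library, where scaling to a total cancels. A shift between the libraries with transcript length need not cancel in it (564 bases for Tyrobp, 1088 for Trem2). Microglia-like cells held 1.21 Tyrobp UMIs per Trem2 UMI (1.15 to 1.28) in the KO library and 1.02 (0.967 to 1.08) in the WT library. Border-associated macrophage-like cells held 4.43 (3.18 to 6.30) in KO and 3.14 (2.03 to 4.996) in WT. Monocyte-like cells, in which Tyrobp serves other receptors, held 40.4 (33.1 to 49.9) in KO and 40.8 (28.9 to 59.5) in WT. The ratio thus differed between the classes in both libraries, and between the libraries its intervals separated in microglia-like cells. In border-associated macrophage-like cells it was also higher in KO, but from 44 KO and 28 WT Trem2 UMIs, and the intervals overlapped. No shift particular to microglia-like cells is therefore read from it.

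**Figure D1:**
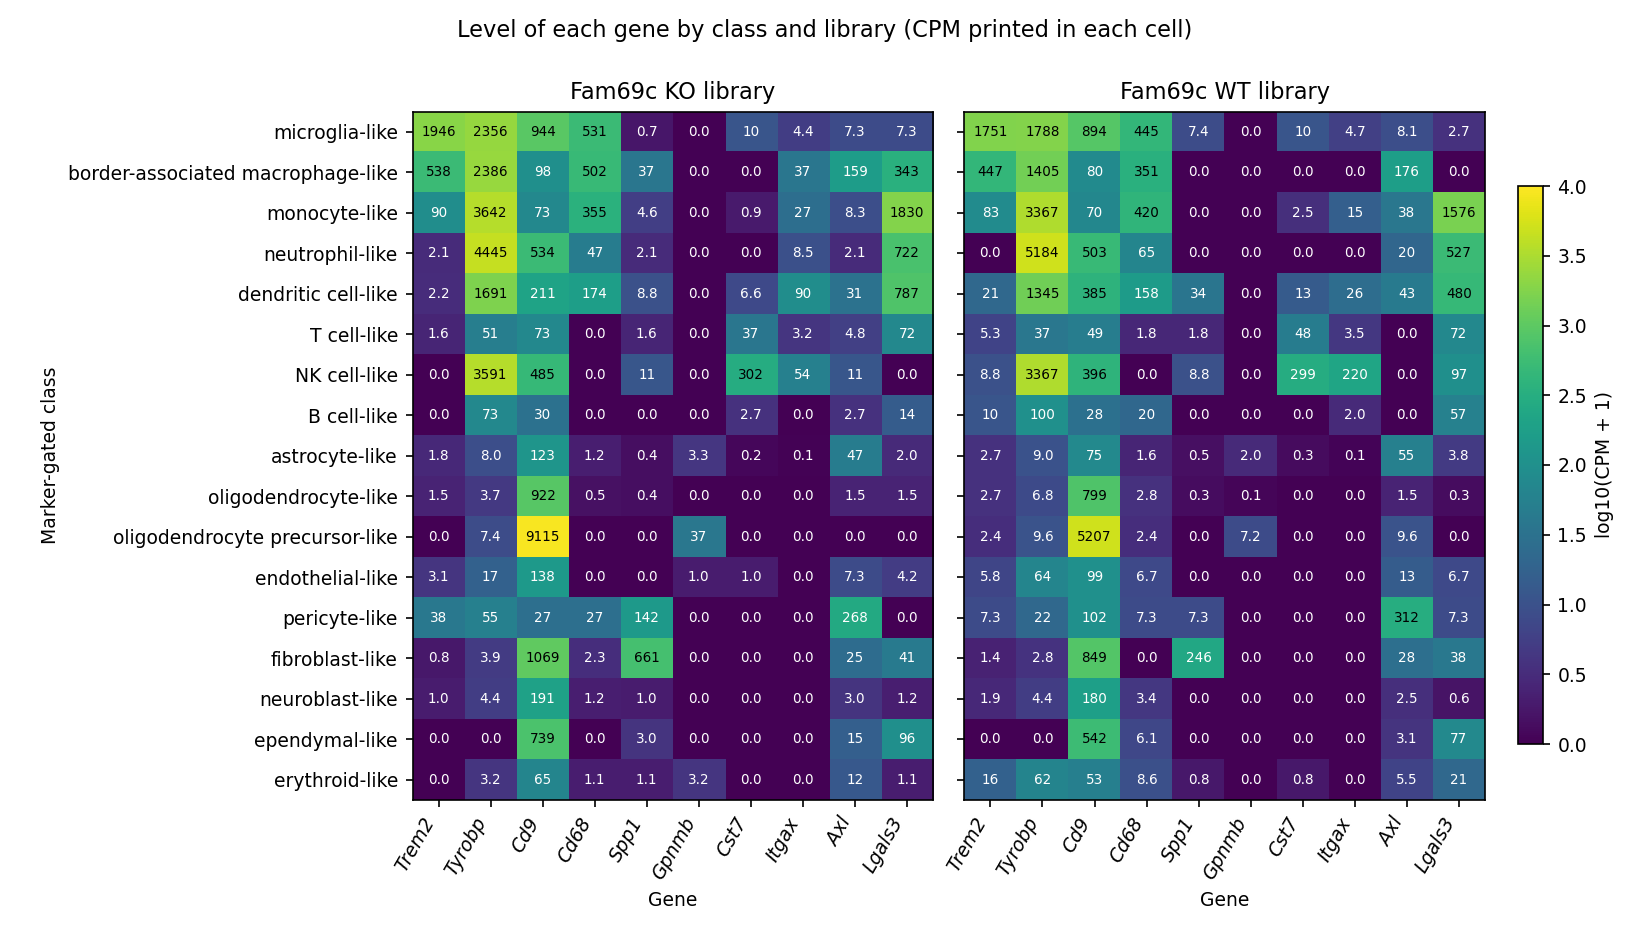
Level of each of the 10 genes (columns) in each marker-gated class with at least 10 cells per library (rows), KO library left and WT library right; colour is log10(CPM + 1) and the CPM is printed in each field. Trem2 is highest in microglia-like cells (1946 CPM in KO, 1751 CPM in WT), whereas Tyrobp reaches its highest level in neutrophil-like cells (4445 CPM in KO, 5184 CPM in WT).

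Trem2 was nearly a single-class gene. Microglia-like cells held 87.4% of all Trem2 UMIs of kept cells in the KO library and 89.4% in the WT library. Border-associated macrophage-like cells came next at 538 CPM (391 to 723) in KO and 447 CPM (297 to 646) in WT, from 44 UMIs in 11 KO cells and 28 UMIs in 10 WT cells. Monocyte-like cells followed at 90.1 CPM (73.1 to 110) in KO and 82.5 CPM (56.8 to 116) in WT. These first 3 places did not overlap in either library. In the KO library the monocyte-like interval overlapped that of the next class, pericyte-like cells (38.4 CPM, 7 UMIs). T cell-like cells, which should lack the gene, had 1.59 CPM in KO and 5.28 CPM in WT, from 1 UMI in KO and 3 in WT.

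Tyrobp was spread over all myeloid and NK classes. In the KO library the order was neutrophil-like (4445 CPM), monocyte-like (3642 CPM), NK cell-like (3591 CPM), border-associated macrophage-like (2386 CPM), microglia-like (2356 CPM) and dendritic cell-like cells (1691 CPM). The intervals of monocyte-like and NK cell-like cells overlapped there, as did those of border-associated macrophage-like and microglia-like cells. In the WT library the order was neutrophil-like (5184 CPM), NK cell-like and monocyte-like (both 3367 CPM), microglia-like (1788 CPM), border-associated macrophage-like (1405 CPM) and dendritic cell-like cells (1345 CPM). NK cell-like and monocyte-like cells overlapped in WT, and so did border-associated macrophage-like cells with both of their neighbours. Of all Tyrobp UMIs, microglia-like cells held 22.8% in KO and 33.4% in WT, beside 97 KO and 29 WT monocyte-like cells and 80 KO and 34 WT neutrophil-like cells. Cells without a class held a further 22.3% of Tyrobp UMIs in KO and 19.9% in WT, and 4.74% of Trem2 UMIs in KO and 3.70% in WT.

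Cd68 and Cd9 were the other abundant genes. Cd68 (ENSMUSG00000018774, chr11:69664213-69666153) encodes a lysosomal membrane protein of phagocytes. It had 531 CPM (493 to 571) in KO and 445 CPM (411 to 480) in WT microglia-like cells, a log2 difference of 0.26 (0.10 to 0.41). Border-associated macrophage-like cells had 502 CPM in KO and 351 CPM in WT, and monocyte-like cells 355 CPM in KO and 420 CPM in WT. Microglia-like cells were first in both libraries and overlapped the next class in both. They held 47.2% of Cd68 UMIs in KO and 56.8% in WT.

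Cd9 (ENSMUSG00000030342, chr6:125460266-125494791) encodes a tetraspanin, a scaffold that groups integrins in the membrane. It had 944 CPM (894 to 997) in KO and 894 CPM (847 to 944) in WT microglia-like cells, and the log2 difference of 0.08 (-0.03 to 0.19) was within counting error. Microglia-like cells held 6.24% of Cd9 UMIs in KO and 8.15% in WT, and oligodendrocyte-like cells 42.2% in KO and 42.5% in WT. The highest level was in oligodendrocyte precursor-like cells, at 9115 CPM in KO and 5207 CPM in WT. That class had 16 KO and 19 WT cells, and 5 of them held 73.7% of its Cd9 UMIs in KO and 59.7% in WT. Fibroblast-like cells (1069 CPM in KO, 849 CPM in WT), oligodendrocyte-like cells (922 CPM in KO, 799 CPM in WT) and ependymal-like cells (739 CPM in KO, 542 CPM in WT) also held it. In KO the microglia-like and oligodendrocyte-like intervals overlapped, and in WT the fibroblast-like interval overlapped both of them. The predicted genes Gm28809 and Gm26728 overlap Cd9 on the other strand.

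**Figure D2:**
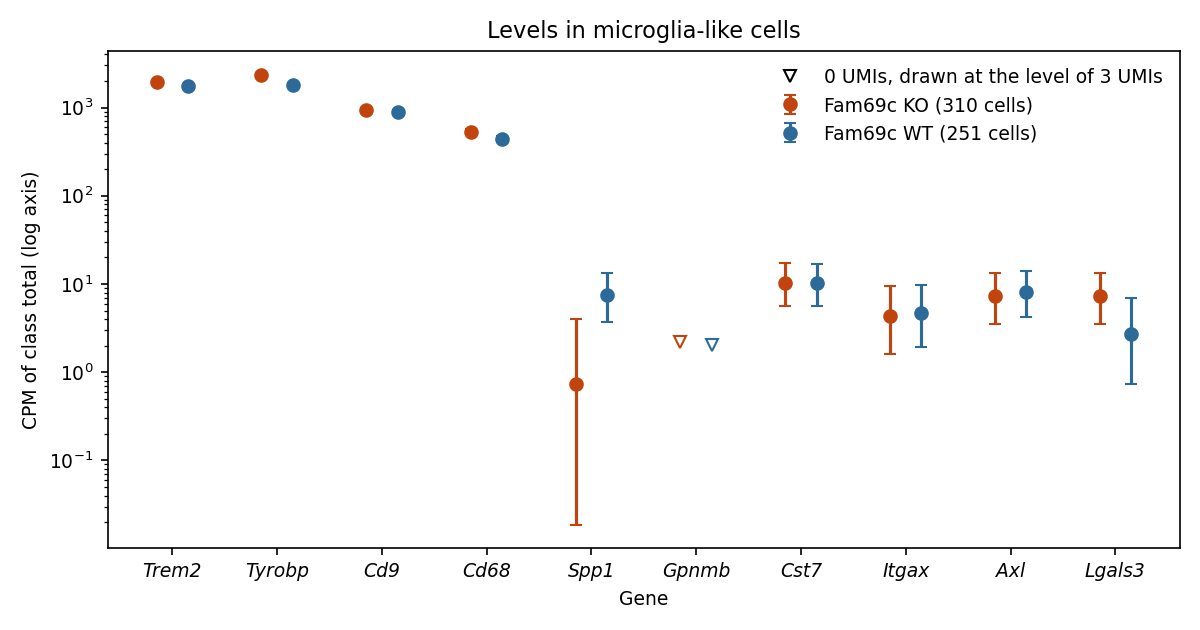
Level of each of the 10 genes in microglia-like cells (CPM, log axis), KO library (310 cells) in orange left of WT library (251 cells) in blue; bars are exact Poisson 95% intervals for counting error and triangles mark 0 UMIs, drawn at the level of 3 UMIs. Trem2, Tyrobp, Cd9 and Cd68 lie between 445 and 2356 CPM, and the other 6 genes at or below 10.2 CPM.

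The 4 abundant genes were read against all genes of the class. Of 7192 genes with at least 50 UMIs in microglia-like cells, 168 (2.34%) were higher in KO and 262 (3.64%) lower in KO by at least 1.5-fold after 10 CPM was added to both sides. Of the 10 genes followed here, 4 had enough UMIs and none of these 4 passed 1.5-fold. All 4 were higher in KO, with a median log2 difference of 0.20, beside a median of -0.01 and 48.3% higher among all genes measured. The other 6 did not reach 50 UMIs.

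Transcript length moved with this difference, and its part in the result was not tested. The median log2 difference over all genes was 0.19 in the quartile with the shortest transcripts (204 to 1946 bases), then 0.04, -0.09 and -0.20 in the quartiles with longer ones. Trem2, Tyrobp, Cd9 and Cd68 have transcripts of 1088, 564, 1228 and 1230 bases and all fall in the shortest quartile, where 76.4% of genes were higher in KO. Within that quartile, Tyrobp lay above 80.2% of the genes, Cd68 above 59.6%, Trem2 above 44.6% and Cd9 above 32.7%. With the median of the quartile taken off, the log2 difference was 0.21 for Tyrobp, 0.07 for Cd68, -0.03 for Trem2 and -0.11 for Cd9. This leaves in any trend within the quartile, where the Tyrobp transcript (564 bases) is the shortest of these. The sign turned for Trem2 and Cd9 and was kept for Tyrobp and Cd68. No interval was computed for these values, and Cd9 was within counting error before the subtraction. No direction is therefore read from the values of Trem2, Cd9 and Cd68.

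**Figure D3:**
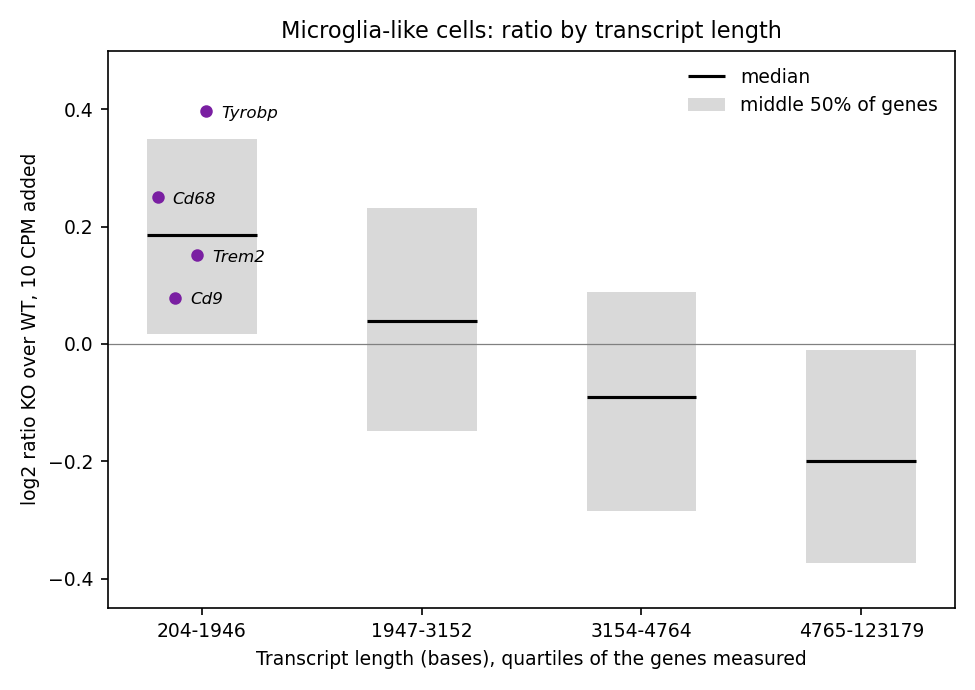
log2 ratio KO over WT in microglia-like cells (10 CPM added) by quartile of transcript length in bases; black lines are medians, grey boxes hold the middle 50% of genes, and purple points are the 4 genes named. The median passes from 0.19 in the shortest quartile to -0.20 in the longest; Tyrobp lies above the box of its quartile, and Cd68, Trem2 and Cd9 lie within it.

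Counts in single cells showed the same genes cell by cell. To set depth equal, each microglia-like cell was reduced to 2000 UMIs, which left out 97 KO and 61 WT cells that were shallower. Trem2 had a mean of 4.03 UMIs per cell in 213 KO cells and 3.56 in 190 WT cells, and Tyrobp 4.82 in KO and 3.70 in WT. Cd9 had 1.94 in KO and 1.95 in WT, and Cd68 1.12 in KO and 0.837 in WT. At this depth 2.82% of KO and 6.84% of WT cells had no Trem2 UMI, and 2.35% of KO and 8.42% of WT cells no Tyrobp UMI. In cells as deposited, Trem2 was found in 87.1% of KO and 86.5% of WT microglia-like cells. In oligodendrocyte-like cells, with median depths of 11297.5 UMIs in KO and 13669.5 in WT, it was found in 1.79% of KO and 3.09% of WT cells.

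The spread between cells differed by gene. The variance over the mean at equal depth, which is 1 for pure counting, was 1.24 in KO and 1.52 in WT for Trem2, and 1.60 in KO and 2.61 in WT for Tyrobp. It was 1.83 in KO and 1.75 in WT for Cd9, and 1.21 in KO and 1.02 in WT for Cd68. The highest cell held 14 Tyrobp UMIs in KO and 21 in WT. All 4 genes were detected together in 111 of 213 KO cells (52.1%) and 83 of 190 WT cells (43.7%). Cells with none of the 4 numbered 25 in KO and 17 in WT before depth was set equal, and their median depths were 805 UMIs in KO and 1531 in WT, below those of their classes.

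**Figure D4:**
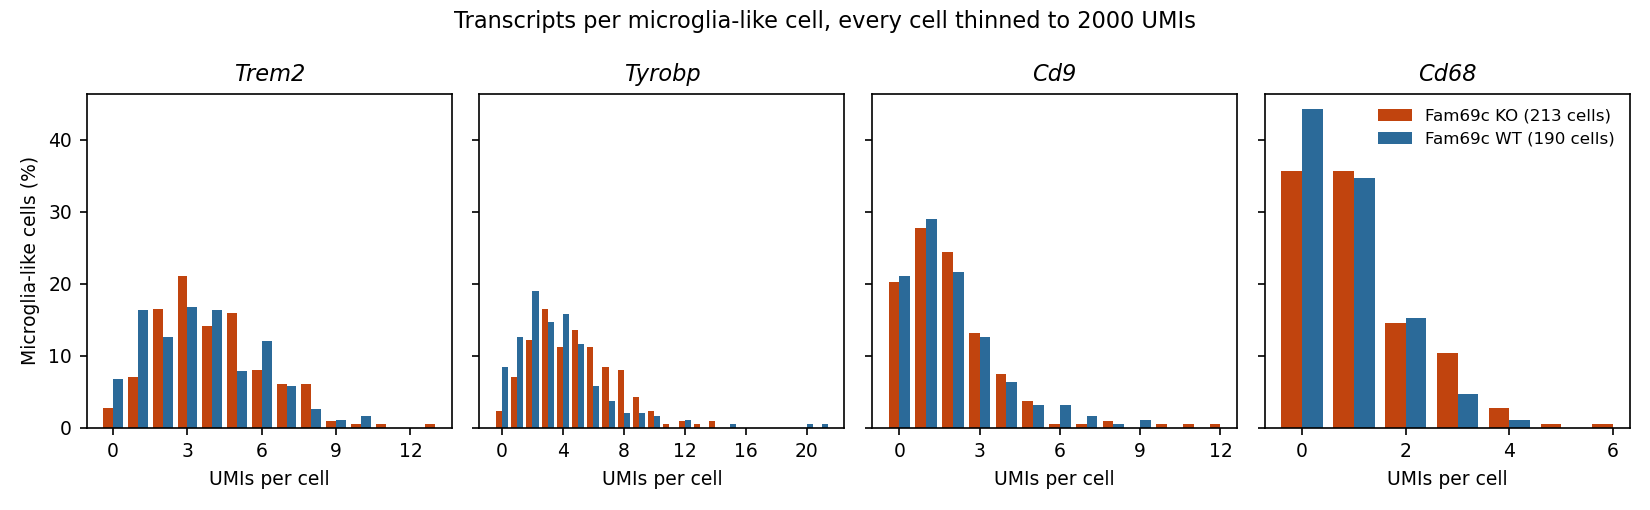
Share of microglia-like cells (percent, y axis) by number of UMIs per cell (x axis) for Trem2, Tyrobp, Cd9 and Cd68, every cell reduced to 2000 UMIs, with 213 KO cells in orange left of 190 WT cells in blue. The KO share without a UMI is lower for Tyrobp (2.35% against 8.42% in WT), and Cd9 is nearly the same in both (20.2% against 21.1%).

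The genes induced in disease-associated microglia were close to absent from this class. Gpnmb, a lysosomal glycoprotein of lipid-laden phagocytes, had 0 UMIs in both libraries, which allows up to 2.18 CPM in KO and 2.03 CPM in WT. Spp1, the secreted phosphoprotein osteopontin, had 1 UMI in KO and 11 UMIs in WT, and all 11 came from 1 cell. Cst7, the cysteine protease inhibitor cystatin F, had 14 UMIs (10.2 CPM) in KO and 15 UMIs (10.2 CPM) in WT. Itgax, the integrin CD11c, had 6 UMIs in KO and 7 in WT. Axl, a receptor tyrosine kinase for the apoptotic-cell bridge Gas6, had 10 UMIs in KO and 12 in WT. Lgals3, a sugar-binding galectin, had 10 UMIs (7.27 CPM) in KO and 4 UMIs (2.71 CPM) in WT, and the interval of their ratio (0.775 to 11.7) held 1.

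Few cells held any of these UMIs. None of the 6 genes was read in 291 of 310 KO cells (93.9%; 90.6 to 96.3%) and 228 of 251 WT cells (90.8%; 86.6 to 94.1%). At least 2 of them were read together in 3 KO cells and 5 WT cells, and no cell had more than 3. At equal depth the shares with none were 97.7% in KO (208 of 213 cells) and 94.2% in WT (179 of 190 cells). Cells with several of the induced genes were thus few in both libraries at this depth.

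Each induced gene had its main level elsewhere. Spp1 (ENSMUSG00000029304, chr5:104435118-104441050) is also made by mesenchymal cells, and fibroblast-like cells held 72.4% of its UMIs in KO and 74.4% in WT. They had 661 CPM (617 to 707) in 112 KO cells and 246 CPM (211 to 286) in 42 WT cells, a ratio of 2.68 (2.27 to 3.17). A UMI was read in 73 KO cells (65.2%) and 17 WT cells (40.5%). The 5 cells with the most Spp1 held 34.0% of it in KO and 69.5% in WT, and without them the log2 difference was 2.41, against 1.42 with all cells. As 5 cells are a larger share of 42 WT than of 112 KO cells, the 2.41 does not show a larger difference. This class was led by Ccn3, Mgp, Penk and Prg4, with 5 of its 8 markers detected in at least 20% of its cells and 1 among its 10 leading genes. Its markers Mgp (18179 CPM in KO, 13489 CPM in WT) and Slc6a13 (40.7 CPM in KO, 17.0 CPM in WT) were higher in KO. All its other markers, Dcn, Lum, Col1a1, Col1a2, Col3a1 and Igf2, were lower in KO. Among them Dcn had 257 CPM in KO and 569 CPM in WT, and Col1a1 549 CPM in KO and 779 CPM in WT. Their part in the Spp1 difference was not tested.

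Pericyte-like cells had 26 Spp1 UMIs in KO, 24 of them in 5 cells, and 1 in WT. A further 254 UMIs in KO and 23 in WT lay in cells without a class, and 121 of those in KO came from 1 cell. The predicted gene Gm42793 overlaps Spp1 on its strand.

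Axl (ENSMUSG00000002602, chr7:25757273-25788705) lay mostly in astrocyte-like cells, which held 86.0% of its UMIs in KO and 83.4% in WT. They had 47.5 CPM (45.2 to 49.8) in KO and 54.6 CPM (51.7 to 57.6) in WT, a log2 difference of -0.20 that became -0.04 under scaling by trimmed means and -0.08 at equal depth. Per cell class the level was highest in pericyte-like cells, at 268 CPM (199 to 355) in KO and 312 CPM (226 to 420) in WT. Border-associated macrophage-like cells followed at 159 CPM in KO and 176 CPM in WT, and the intervals of these neighbours overlapped.

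Lgals3 (ENSMUSG00000050335, chr14:47367751-47386160) was highest in myeloid classes other than microglia-like cells. Monocyte-like cells had 1830 CPM (1750 to 1912) in KO and 1576 CPM (1455 to 1704) in WT and held 52.4% of its UMIs in KO and 41.8% in WT. Dendritic cell-like cells had 787 CPM in KO and 480 CPM in WT, and neutrophil-like cells 722 CPM in KO and 527 CPM in WT. All 3 classes were higher in KO beyond counting error, but they were small. There were 29 WT monocyte-like, 34 WT neutrophil-like, and 26 KO and 13 WT dendritic cell-like cells. The 5 monocyte-like cells with the most Lgals3 held 23.9% of its UMIs in KO and 42.4% in WT. The share of all genes that differed was not computed for these classes, so no direction is read from them. The microglia-like level did not pass 7.27 CPM in either library, and its ratio of 2.69 (0.775 to 11.7) was within counting error. Border-associated macrophage-like cells had 28 UMIs in KO and 0 in WT, but 19 of the 28 came from 1 of 11 cells.

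Cst7 (ENSMUSG00000068129, chr2:150570415-150578944) was highest in NK cell-like cells, at 302 CPM (201 to 436) in 19 KO cells and 299 CPM (207 to 418) in 16 WT cells. T cell-like cells followed at 36.6 CPM (23.2 to 54.9) in KO and 47.5 CPM (31.3 to 69.1) in WT. Itgax (ENSMUSG00000030789, chr7:128129547-128150657) did not keep its order between the libraries. It was highest in dendritic cell-like cells in KO, at 90.2 CPM (64.7 to 122) against 25.7 CPM (9.43 to 55.9) in WT. In WT it was highest in NK cell-like cells, at 220 CPM (142 to 324), against 53.9 CPM (17.5 to 126) in KO. These classes had 26 KO and 13 WT dendritic cell-like cells, with 41 UMIs in KO and 6 in WT, and 5 KO and 25 WT UMIs in NK cell-like cells.

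Gpnmb (ENSMUSG00000029816, chr6:49036546-49070929) was rare in both libraries. Astrocyte-like cells held 116 of its 129 UMIs in KO and 49 of its 56 UMIs in WT, at 3.29 CPM (2.72 to 3.95) in KO and 2.03 CPM (1.499 to 2.68) in WT. These came from 96 of 4133 KO cells (2.32%) and 39 of 2386 WT cells (1.63%). Per cell class the level was highest in oligodendrocyte precursor-like cells, from very few UMIs. They had 37.2 CPM (12.1 to 86.7) from 5 UMIs in KO and 7.17 CPM (1.48 to 20.9) from 3 UMIs in WT. That interval lay above the astrocyte interval in KO and overlapped it in WT. The limit set by 0 UMIs in microglia-like cells lay below the astrocyte interval in KO (2.18 CPM) and within it in WT (2.03 CPM).

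Outside microglia-like cells, 6 classes had at least 50 cells in each library. In astrocyte-like cells 7 of the 10 genes had at least 50 UMIs, and 1, Cd9, passed 1.5-fold, where 0.285% of 13333 genes were higher and 0.683% lower by that measure. Cd9 had 123 CPM in KO and 74.8 CPM in WT astrocyte-like cells, a ratio of 1.64 (1.55 to 1.73), and was read in 51.1% of KO and 42.0% of WT cells. At equal depth it was read in 19.9% of KO and 13.0% of WT cells. The log2 difference of 0.71 was 0.69 at equal depth and 0.88 under scaling by trimmed means, but 0.09 with each cell weighed the same. Trem2, Tyrobp, Cd68 and Lgals3 were at 9.01 CPM or less in astrocyte-like cells of both libraries.

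In endothelial-like cells 2 genes were measured, and Tyrobp was lower in KO past 1.5-fold, as 3.58% of 6118 genes were, with 3.61% higher. It had 16 UMIs (16.7 CPM) in KO and 67 UMIs (64.5 CPM) in WT, and 34 of the 67 came from 1 cell. Without the richest cell of each library the log2 difference was -1.17, against -1.95 with all cells. In T cell-like, B cell-like, oligodendrocyte-like and neuroblast-like cells none of the 4, 1, 2 and 1 genes measured passed 1.5-fold. In these classes 4.06%, 3.53%, 0.445% and 0.133% of all genes were higher in KO past that line, and 9.2%, 15.3%, 0.658% and 1.94% lower. Cd9 in oligodendrocyte-like cells, where it takes part in the myelin membrane, had a log2 difference of 0.21 (0.16 to 0.25), which was 0.04 at equal depth and 0.08 with each cell weighed the same.

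The genes with the class pattern most like Trem2 were sought over 14 points, 7 classes in each of 2 libraries, which share each library's depth. C3ar1, a complement receptor, Fcgr1, an antibody receptor, 1600022D10Rik, P2ry6, a nucleotide receptor, and C1qa, a complement subunit, correlated with it at a Pearson r of 0.997 to 0.998. Cd68 reached 0.990, Tyrobp 0.920 and Cd9 0.568. Trem2 was high in 1 of the 7 classes. Border-associated macrophage-like, monocyte-like, neutrophil-like, dendritic cell-like and NK cell-like cells were not among the 7, so r does not describe the pattern there. Monocyte-like cells had Cd68 at 355 CPM in KO and 420 CPM in WT, but Trem2 at 90.1 CPM in KO and 82.5 CPM in WT. Neutrophil-like cells had the highest Tyrobp level (4445 CPM in KO, 5184 CPM in WT), with 1 Trem2 UMI in KO and 0 in WT.

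Related genes were counted in microglia-like cells, beside all 7192 measured genes, of which 48.3% were higher in KO with a median of -0.01, 2.34% higher past 1.5-fold and 3.64% lower past it. None of the lists below was set against genes of like transcript length, with which the difference moved over all genes. The part of length in their counts and medians was not tested. Of the 21 genes of the Trem2 receptor complex and its signalling, 19 were measured, 7 higher and 12 lower in KO with a median log2 difference of -0.06. Trem2 and Tyrobp themselves belong to this list and are among its 7 higher genes. The gene past 1.5-fold upward was Hcst, which encodes the sister adaptor DAP10 (33.4 CPM in KO, 19.0 CPM in WT). The gene past it downward was Apoe, a lipoprotein that Trem2 binds (737 CPM in KO, 1122 CPM in WT). Inpp5d, the phosphatase SHIP1 that curbs the pathway, had 388 CPM in KO and 527 CPM in WT. As the list holds Trem2 and Tyrobp, its counts and median are not a separate measure beside these genes.

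Of 24 other genes of the disease-associated state, 20 were measured, 10 higher and 10 lower, with a median of 0.02. Apoe and Lpl, the lipoprotein lipase (37.1 CPM in KO, 71.8 CPM in WT), passed 1.5-fold downward and none upward. Abundant members were the protease Ctsd (8564 CPM in KO, 7825 CPM in WT) and the ferritin chains Fth1 (2645 CPM in KO, 2053 CPM in WT) and Ftl1 (2090 CPM in KO, 1941 CPM in WT). Cadm1, an adhesion molecule, had 161 CPM in KO and 116 CPM in WT, and Csf1, the microglial growth factor, 24.7 CPM in KO and 37.9 CPM in WT.

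Of 20 homeostatic genes, 10 of them gate markers, 6 were higher and 14 lower in KO, with a median of -0.11 and none past 1.5-fold. Transcript length was not taken into account in these counts. The purine receptor P2ry12 had 2258 CPM in KO and 2827 CPM in WT, Gpr34 1768 CPM in KO and 2193 CPM in WT, Mef2c 1317 CPM in KO and 1646 CPM in WT, and Tgfbr1 984 CPM in KO and 1245 CPM in WT. The fractalkine receptor Cx3cr1 (5700 CPM in KO, 6091 CPM in WT) and the secreted Sparc (2982 CPM in KO, 3339 CPM in WT) were closer.

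Partners of single genes gave a mixed picture. Of 3 measured Axl-family genes, the ligand Gas6 was higher in KO (113 CPM, against 72.4 CPM in WT). The receptor Mertk was lower (465 CPM, against 651 CPM in WT), and the ligand Pros1 had 215 CPM in KO and 240 CPM in WT. The 5 measured Spp1 receptor genes had a median of 0.03, with Itgb5 at 869 CPM in KO and 843 CPM in WT, Itgb1 at 262 CPM in KO and 301 CPM in WT, Itgav at 141 CPM in KO and 135 CPM in WT, and Itgb3 at 29.1 CPM in KO and 31.1 CPM in WT. Of 13 partners of Itgax, Cd9, Lgals3, Cst7 and Cd68, 10 were higher with a median of 0.06, beside 48.3% higher and a median of -0.01 over all genes of any transcript length. These included the tetraspanins Cd81 (2282 CPM in KO, 1880 CPM in WT) and Cd82 (122 CPM in KO, 86.0 CPM in WT) and the proteases Ctsh (703 CPM in KO, 567 CPM in WT) and Lgmn (2871 CPM in KO, 2540 CPM in WT). Lamp1, the lysosomal companion of Cd68, had 765 CPM in KO and 745 CPM in WT, and Lgals9 136 CPM in KO and 163 CPM in WT. None of these 3 lists had a gene past 1.5-fold in either direction.

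**Figure D5:**
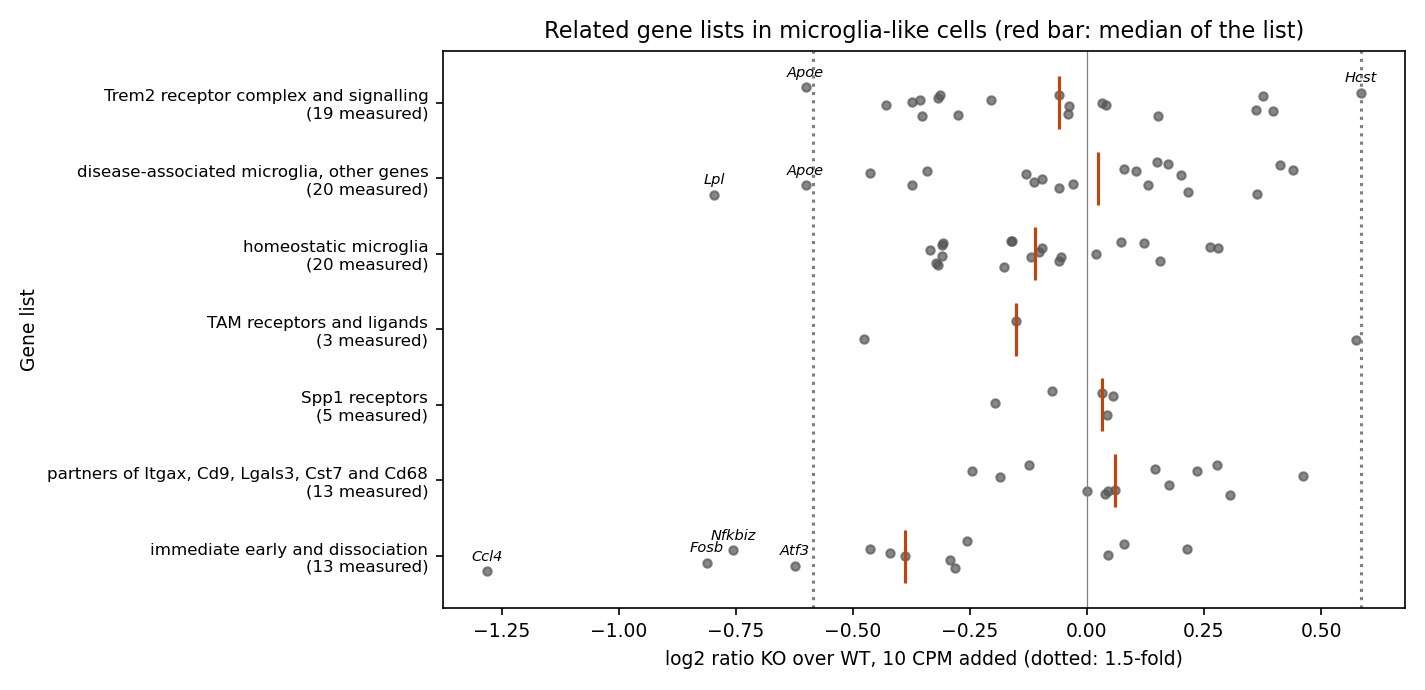
log2 ratio KO over WT (10 CPM added) of each measured gene of the related lists in microglia-like cells; each point is a gene, red bars are list medians and dotted lines mark 1.5-fold. List medians lie between -0.15 and 0.06 except for the immediate early and dissociation list at -0.39.

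Immediate early and dissociation genes, which heating and enzymes can induce in microglia, stood beside these values. Of 13, 3 were higher and 10 lower in KO, with a median of -0.39, and Ccl4 (648 CPM in KO, 1590 CPM in WT), Fosb (129 CPM in KO, 235 CPM in WT), Nfkbiz (168 CPM in KO, 290 CPM in WT) and Atf3 (723 CPM in KO, 1120 CPM in WT) passed 1.5-fold downward. Jun (4913 CPM in KO, 6435 CPM in WT) and Egr1 (1764 CPM in KO, 2109 CPM in WT) were also lower, and Junb was not (2881 CPM in KO, 2728 CPM in WT). Their part in the differences of Trem2, Tyrobp and Cd68 was not tested, and only a split of the cells is given. At equal depth, 54 KO cells (25.4%) and 68 WT cells (35.8%) had a Ccl3 or Ccl4 UMI.

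In cells with such a UMI, Tyrobp had 2574 CPM (2280 to 2895) in KO and 1809 CPM (1590 to 2050) in WT, and in cells without one 2352 CPM (2187 to 2527) in KO and 1873 CPM (1705 to 2053) in WT. The Tyrobp intervals of the libraries separated in both kinds of cell. A cell without such a UMI at this depth may still hold these transcripts, and the other genes of the list were not split on. Trem2 had 1861 CPM in KO and 1890 CPM in WT with such a UMI, and 2069 CPM (1914 to 2234) in KO and 1721 CPM (1561 to 1894) in WT without. Cd68 had 676 CPM in KO and 419 CPM in WT with one, and 522 CPM in KO and 418 CPM in WT without. Cd9 had 1111 CPM in KO and 1140 CPM in WT with one, and 921 CPM in KO and 881 CPM in WT without. The Trem2 intervals of the libraries separated in the cells without a chemokine UMI and overlapped in those with one, and that contrast was not tested.

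Markers of other cells were measured in the microglia-like class. The 9 astrocyte markers made up 0.0602% of its UMIs in KO and 0.0440% in WT, with none at 0. The 8 border-associated macrophage markers made up 0.0249% in KO and 0.0273% in WT, with 3 of the 8 at 0 in KO and 5 in WT, and the 7 monocyte markers 0.00182% in KO and 0.00169% in WT, with 1 at 0 in KO and 2 in WT. The 10 microglial markers made up 2.66% in KO and 2.80% in WT. Hemoglobin and other erythroid markers made up 0.258% in KO and 0.374% in WT. Neutrophil markers, which mark the class with the most Tyrobp, made up 0.0128% in KO and 0.00508% in WT, with 3 of 8 at 0 in KO and 4 in WT.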

How the data were processed

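The deposited tables hold raw counts of UMIs per gene and barcode, made by the authors with Cell Ranger 4.0.0 on mm10, per the submitters' processing notes, which also name Seurat 3.0 and R 4.0.3. The release of the gene annotation (not given in the sources used here) may differ from GENCODE M21. A barcode counted as a cell with 500 genes or more and a mitochondrial share of 20% or less (1702 KO barcodes, 18.5%, and 1998 WT barcodes, 27.9%, failed). The highest Scrublet scores (scanpy 1.11.5) were removed at 0.8% per 1000 cells, 448 in KO and 212 in WT. A gate gave each cell 1 of 19 classes from 146 markers: at least 3 markers of a panel, a score of at least 0.15 (the panel's share of UMIs over that of its top 20 cells) and 2 times the next score. The thresholds of the gate were chosen with the data in view, and 11 KO and 7 WT microglia-like cells lay near them. UMIs were summed per class and library (CPM). Level intervals are exact Poisson, share intervals Clopper-Pearson and ratio intervals exact conditional binomial, and a count of 0 was given a limit of 3 UMIs.

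No pooled sample has a replicate, so no p-value was computed. The 10 genes and all lists were chosen with earlier results of these data known. From each list the text names the up to 4 genes with the largest ratio and the 3 most abundant, and the 5 genes most like Trem2, except 1 gene that is not reported here. Calculations (scipy 1.17.1, numpy 2.4.6 and pandas 2.3.3 under Python 3.11.15) were tested on simulated data. Alternatives were other filters, doublets kept, Leiden clusters (leidenalg 0.10.2), a stricter gate, other scalings, equal cell weights, equal depth and removal of the richest cell. Subtraction of the median of the length quartile and removal of shallow cells and of the 5 cells richest in Spp1 were added after seeing the data. Positions are from GENCODE M21 by identifier (10 of 10).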

Additional observations from a re-analysis of the deposited data

Results flagged for a closer look

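For Trem2 and Tyrobp the KO over WT difference had opposite signs in different classes, with intervals that excluded 0 on each side. These differences between classes were not tested, since each library is 1 sample, and some of the signs turned under other processing. Trem2 was higher in KO by 0.15 on the log2 scale in microglia-like cells (1946 CPM in KO, 1751 CPM in WT). With the median of its length quartile taken off, the difference was -0.035. In astrocyte-like cells it was lower in KO, at -0.56, from 65 UMIs (1.85 CPM) in KO and 66 UMIs (2.73 CPM) in WT, and 0.31 at equal depth. T cell-like cells, which should lack Trem2, had 1.59 CPM in KO and 5.28 CPM in WT.

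Tyrobp was higher in KO by 0.40 in microglia-like cells (2356 CPM in KO, 1788 CPM in WT). It was lower in KO in oligodendrocyte-like cells, at -0.90 (3.68 CPM in KO, 6.84 CPM in WT), where it became 0.051 with the stricter filter and 1.13 with doublets kept. In endothelial-like cells it was lower in KO as well, at -1.95 (16.7 CPM in KO, 64.5 CPM in WT). In endothelial-like cells 34 of 67 WT UMIs came from 1 cell.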

How the results depend on the processing

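Of 317 recomputed values of 32 results, 265 stayed within counting error or within 1.5 times a count and 48 moved. The other 4 turned sign from a main difference that was beyond counting error. Where the main difference was within counting error, a change of sign is counted among the values that stayed or moved. The cause of these moves was not tested. No paired analysis was possible because each genotype has 1 library. For the same reason no replicate could be left out. Tyrobp and Cd68 in microglia-like cells were higher in KO under all 12 alternatives, at 0.21 to 0.46 and 0.069 to 0.42 on the log2 scale. With the median of the length quartile taken off, microglia-like differences were -0.035 for Trem2, 0.21 for Tyrobp, -0.11 for Cd9 and 0.069 for Cd68. At equal depth Cd68 was 0.42 in microglia-like cells. Trem2 in astrocyte-like cells turned to 0.31 at equal depth, and Tyrobp in oligodendrocyte-like cells to 0.051 with the stricter filter and 1.13 with doublets kept. With the stricter gate, Tyrobp was -2.16 in T cell-like and -0.95 in endothelial-like cells and Cd9 0.90 in endothelial-like cells. With each cell weighed the same, Tyrobp was -0.60, 0.32 and -0.62 in T cell-like, B cell-like and endothelial-like cells, and Cd9 0.093, 0.076 and -0.13 in astrocyte-like, oligodendrocyte-like and neuroblast-like cells. With Leiden clusters, Tyrobp was 0.78 in B cell-like and Cd9 0.87 in astrocyte-like cells. Trimmed means, which take off a shift of -0.16 from astrocyte-like genes and so move them up, gave 0.88 and 0.27 for Cd9 in astrocyte-like and oligodendrocyte-like cells and -0.040 for Axl in astrocyte-like cells. At equal depth Axl was -0.078 there, and Cd9 0.038, 1.80 and -0.068 in oligodendrocyte-like, endothelial-like and neuroblast-like cells. Genes higher past 1.5-fold numbered 331 with 2 CPM added, 19 with 50 CPM, 266 with a minimum of 1 UMI and 53 with 200 UMIs, against 168, and genes lower 454, 42, 424 and 83, against 262. The Axl-family list had 2 genes higher at equal depth, against 1.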
